A study of Homo sapiens with 18 samples.

Results

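The endoderm regulators SOX17, FOXA2, HHEX, GATA6, LHX1 and MEIS3 and the receptor gene CXCR4 were followed in human embryonic stem cells exposed to Wnt3a, with and without an intact SP5. They were chosen by name, and all 7 are among the 10975 genes of the RPKM table and among the 497 genes of the mutant table. SP5 is a zinc finger transcription factor of the SP/KLF family whose gene is turned on by WNT signaling. The cells were H1, an established human embryonic stem cell line, grown in E8 medium and given 1 nM Wnt3a for 12, 24 or 48 h, or WNT storage buffer at 0 h. A first WT series was deposited as RPKM, a read count scaled to transcript length and to the reads mapped in the library. A second WT series, WT Rep. 2, was deposited with dZF1 and dZF2, 2 lines in which CRISPR-Cas9 removed the segment coding for the SP5 zinc fingers from both alleles. The mutant table is limited to genes that the study picked as changing with Wnt3a in WT cells, so shares of that table are not shares of all genes. Each mutant line is 1 single-cell clone, so the deletion and the clone that carries it cannot be told apart. Each of the 16 RNA libraries is the only one of its series and time, the 2 WT series are on separate scales and were not averaged, the read depth behind each value is unknown, and no p-value is given, because 2 clones against 1 WT series cannot give an exact permutation p below 0.33.

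Definitive endoderm is the germ layer that forms the lining of gut, liver, pancreas and lung. WNT and NODAL signaling turn on EOMES, MIXL1 and GSC as cells leave pluripotency, and SOX17, FOXA2, GATA6 and HHEX mark the cells that go on to endoderm. SOX17 is an SRY-related factor needed for endoderm, FOXA2 and GATA6 are pioneer factors that open chromatin, HHEX is a homeobox repressor of anterior endoderm, and LHX1 is a LIM-homeobox factor of the organizer and anterior mesendoderm. MEIS3 is a TALE-homeobox cofactor of HOX proteins, and CXCR4 is the receptor for the chemokine CXCL12 and a surface marker used to sort definitive endoderm.

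In the first WT series all 7 genes were highest at 48 h, but they took different routes to it. SOX17 (chr8:55370495-55373452, plus strand; all gene positions are hg19) was listed at 0 RPKM at 0 and 12 h, at 0.6 RPKM at 24 h and at 89.6 RPKM at 48 h. CXCR4 (chr2:136871919-136876747, minus strand) stood at 3.1, 2.4 and 2.8 RPKM at 0, 12 and 24 h and at 86.0 RPKM at 48 h. LHX1 (chr17:35294084-35301912, plus strand) was at 0.6, 0.3, 5.7 and 93.7 RPKM at the 4 times. These 3 genes were late, gaining 99.3%, 100% and 94.5% of their net 0 to 48 h increase after 24 h. On the scale of log2(RPKM + 1), their steps from 24 to 48 h, 5.82 for SOX17, 4.52 for CXCR4 and 3.82 for LHX1, held ranks 1, 4 and 8 of all 10975 genes.

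FOXA2 (chr20:22561636-22566093, minus strand) rose earlier. Its level went from 0.9 RPKM through 3.0 at 12 h and 29.1 at 24 h to 40.7 RPKM, so that 29.1% of its gain came after 24 h. Its step from 12 to 24 h was 2.91 on the log2 scale, rank 10 of all genes, whereas its step from 24 to 48 h was 0.47. HHEX (chr10:94449712-94455404, plus strand) was listed at 0 at 0 h and was at 0.9, 4.3 and 28.1 RPKM at 12, 24 and 48 h. GATA6 (chr18:19749550-19782491, plus strand) was listed at 0 at 0 h and was at 0.1, 6.1 and 41.1 RPKM at the later times. Both lay between FOXA2 and the late genes, with 84.7% and 85.2% of their gain after 24 h. MEIS3 (chr19:47906381-47922784, minus strand) was the only gene of the 7 with a steady climb from a level already present, at 3.2, 6.6, 15.8 and 33.8 RPKM.

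**Figure D1:**
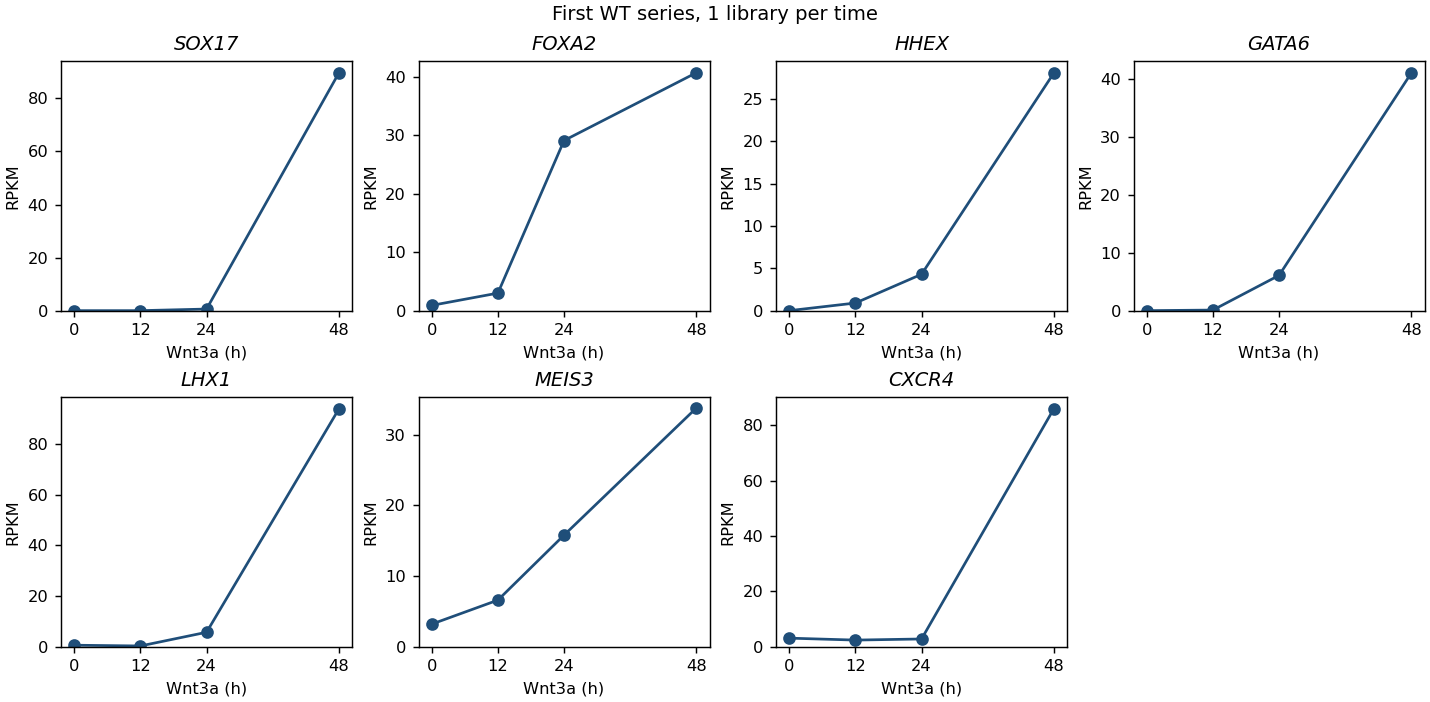
Levels of the 7 genes in RPKM (vertical axes, linear and scaled to each gene) against hours of Wnt3a in the first WT series, 1 library per point. SOX17, LHX1 and CXCR4 are at 5.7 RPKM or less until 24 h and lie between 86.0 and 93.7 RPKM at 48 h, FOXA2 is already at 29.1 RPKM at 24 h, and MEIS3 climbs throughout.

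At 48 h the order of the levels was LHX1, SOX17, CXCR4, GATA6, FOXA2, MEIS3 and HHEX, from 93.7 down to 28.1 RPKM. With 1 library at each time, neighbours in this order cannot be told apart beyond library error, and LHX1, SOX17 and CXCR4 formed an upper group, from 86.0 RPKM up, against 41.1 RPKM for the next gene. A gene was called changed where log2(RPKM + 1) differed by at least 1 from its 0 h value. By this call, FOXA2 alone had risen at 12 h, against 1.22% of all genes. At 24 h 5 of 7 had risen, FOXA2, GATA6, HHEX, LHX1 and MEIS3, against 2.62% of all genes, and at 48 h all 7 had, against 4.87%. All 7 are among the genes the study picked as changing with Wnt3a in WT cells. A larger share than that of all genes was thus in part built in, as were the high ranks of the steps given above. The log2 changes at 48 h ran from 3.05 for MEIS3 to 6.50 for SOX17, with a median of 4.86, where the median of all genes was 0.00. Being highest at 48 h is in itself common, holding for 31.8% of all genes. In bulk RNA, more cells of a type and more RNA per cell cannot be told apart.

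Other genes of the endoderm program did not all share the 48 h maximum. Of 21 further endoderm genes 17 are listed, of which 13 rose at least 2-fold by 48 h and 0 fell, with a median log2 change of 2.30. Every listed gene reached at least 4.0 RPKM at some time in this series. A gene lower than that at 0 h is thus listed only if it rose, and an unlisted gene may have stayed below. EOMES, the T-box factor at the top of the endoderm program, was listed at 0 at 0 h and stood at 109.3 RPKM at 24 h and 139.8 at 48 h. MIXL1, a homeobox factor of mesendoderm, passed through a peak of 271.1 RPKM at 24 h and was at 76.4 RPKM at 48 h. NODAL, the TGF-beta family ligand, likewise went from 4.3 to 159.2 and back to 56.9 RPKM. The repressor PRDM1 followed the late pattern, at 0.5, 0.4, 1.7 and 24.9 RPKM. CXCL12, the ligand of CXCR4, was at 39.9, 43.6, 46.4 and 25.6 RPKM, a log2 change of -0.62 by 48 h while its receptor rose. The second CXCL12 receptor, ACKR3, is not listed under that symbol, nor are FOXA1, HNF4A and TTR under theirs. Here and below genes were sought by a single symbol each, so a gene listed under an older symbol would be missed.

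Of 9 paralogs of the 7 genes only FOXA3 and GATA4 are listed. FOXA3, another FOXA factor, was present from the start and went from 14.4 to 24.4 RPKM by 48 h, a log2 change of 0.72. GATA4 was listed at 0 until 12 h and was at 1.4 RPKM at 24 h and 14.9 at 48 h, below GATA6 at both times.

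Markers of other cell types are given here because several of the 7 genes are used outside definitive endoderm. All 8 pluripotency genes are listed, with a summed level of 1382.4 RPKM at 0 h and 959.2 at 48 h, and 2 of them fell at least 2-fold, SOX2 by 1.17 and PRDM14 by 1.38 on the log2 scale. POU5F1 was still at 243.1 RPKM at 48 h, against 294.6 at 0 h. Of 12 mesoderm genes 5 are listed and 4 rose, with a sum that went from 26.8 to 57.0 RPKM. Of these, TBX6, MESP1 and TBX3 reached 4.0 RPKM, the level that every listed gene reached, only at 48 h, so their rise is in part built in. Among 7 genes of extraembryonic endoderm 4 are listed and only GATA4 rose, while SOX7 and AFP are not listed. Of 8 endothelial and blood genes TEK and RUNX1 are listed, with a summed level between 8.9 and 12.3 RPKM, and PECAM1, CDH5 and TAL1 are not. RUNX1 rose from 0.4 to 5.6 RPKM by 48 h, the 1 call of this list, while TEK went from 11.9 to 5.7 RPKM. GATA4 and RUNX1 likewise reached 4.0 RPKM only at 48 h, so their rise is in part built in too. TFAP2C alone of 7 trophoblast and amnion genes is listed, at 2.0 to 4.5 RPKM. NES and ZIC2 of 6 neural genes are, with a sum of 225.4 to 300.7 RPKM and 0 calls. The part of these other cells in the levels of the 7 genes was not tested.

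In the SP5 mutant clones all 7 genes were higher than in WT Rep. 2 after 48 h of Wnt3a. Here each value is the RPKM divided by the highest RPKM of the same gene in WT Rep. 2, so WT Rep. 2 is 1.00 at 48 h for each of the 7 and levels cannot be compared between genes. HHEX was at 5.56 in dZF1 and 5.17 in dZF2. SOX17 was at 2.88 in dZF1 and 4.0 in dZF2. GATA6 was at 2.87 and 2.85. Both clones were above WT for these 3 genes by more than they differed from each other, and GATA6 in particular was nearly equal in the 2 clones.

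FOXA2 reached 2.40 in dZF1 and 2.02 in dZF2, and CXCR4 reached 2.14 and 1.98. MEIS3 was at 1.56 and 1.60, close together and nearer to WT. LHX1 was at 1.90 in dZF1 and 1.34 in dZF2, the only gene of the 7 for which the clones lay further from each other (0.49 on the log2 scale) than the lower one lay from WT (0.40). The clones share WT Rep. 2 as their only control, so a low value in that 1 library at 48 h would raise both ratios.

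**Figure D2:**
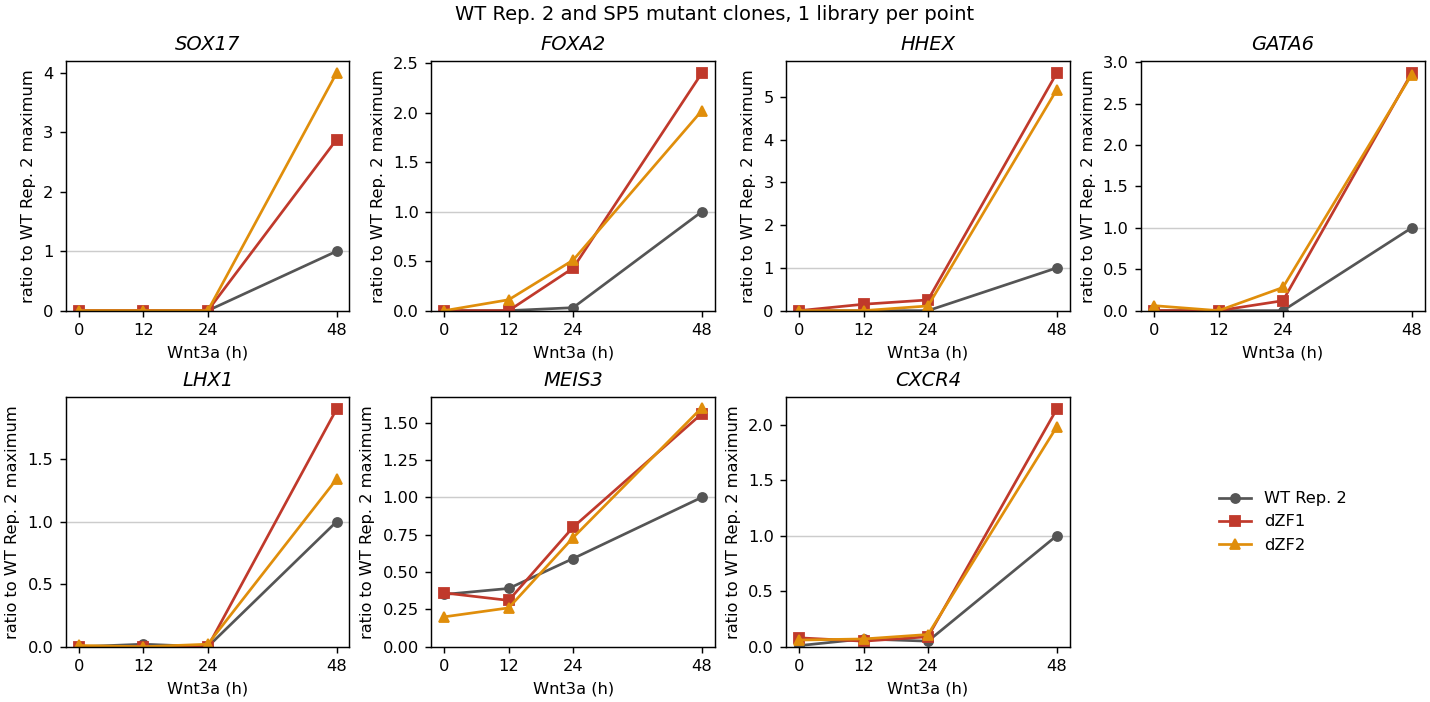
Values of the 7 genes divided by the WT Rep. 2 maximum of the same gene (vertical axes, linear and scaled to each gene) against hours of Wnt3a, for WT Rep. 2 (circles), dZF1 (squares) and dZF2 (triangles), 1 library per point. At 48 h both clones lie above WT Rep. 2 in all 7 plots, from 1.34 for LHX1 in dZF2 to 5.56 for HHEX in dZF1.

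On the scale of log2(value + 0.05), the median difference of the clones from WT Rep. 2 at 48 h was 1.10 over the 7 genes, 1.22 in dZF1 and 0.98 in dZF2, and 0.05 over all 497 genes. All 7 were higher in both clones, against 44.7% of the genes of the table. With 0.05 added, SOX17, HHEX and GATA6 were at least 2-fold higher in both, against 6.24% of the table. FOXA2, at 2.02 or more in both clones before the addition, passes as well when 0.01 is added instead, which makes 4 genes. With 0.05 added FOXA2 and CXCR4 just missed, with log2 differences of 0.98 and 0.95 in dZF2 against 1.22 and 1.06 in dZF1, so that 5 genes pass with dZF1 alone and 3 with dZF2 alone. By the mean of both clones HHEX, at 2.37, ranked second of the 497 genes and SOX17, at 1.71, sixth. GATA6 followed at rank 16, FOXA2 at 35 and CXCR4 at 44, whereas LHX1 at 93 and MEIS3 at 97 were further down, with means of 0.65 and 0.63.

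**Figure D3:**
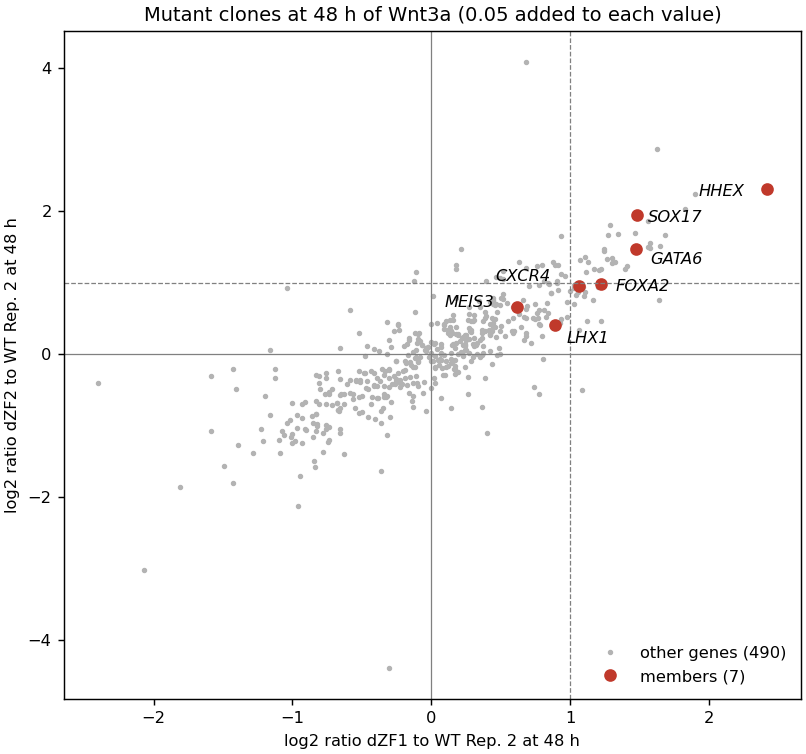
Log2 ratio to WT Rep. 2 at 48 h, with 0.05 added to each value, in dZF1 (horizontal axis) and dZF2 (vertical axis) for the 7 genes (red) and the other 490 genes of the table (grey), with solid lines at 0 and dashed lines at 1. All 7 lie in the upper right quadrant, and HHEX, SOX17 and GATA6 lie beyond 1 on both axes. Both axes share the WT Rep. 2 library, so the diagonal spread of the grey points is in part that of a common denominator.

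Before 48 h the picture was less even. At 24 h FOXA2 was at 0.03 in WT Rep. 2 but at 0.43 in dZF1 and 0.51 in dZF2, log2 differences of 2.58 and 2.81. HHEX was listed at 0 in WT Rep. 2 and was at 0.25 and 0.11 in the clones, and GATA6 was listed at 0 and was at 0.12 and 0.28. Thus the clones already held measurable FOXA2, HHEX and GATA6 at a time when WT Rep. 2 had little or none. SP5 RNA itself was at only 0.09 in WT Rep. 2 at 24 h, and the part of this in the 24 h differences was not tested. MEIS3 went from 0.59 in WT Rep. 2 to 0.80 and 0.73 in the clones. CXCR4 was at 0.05, 0.09 and 0.11. SOX17 was listed at 0 in all 3 series, and LHX1 was at 0 in WT Rep. 2 and dZF1 and 0.02 in dZF2. The late genes were therefore still low in the clones at 24 h. In all, 5 of 7 genes were higher in both clones at 24 h, against 51.1% of the table, and 3 were at least 2-fold higher, against 10.5%. The last count falls to 1, FOXA2, with 0.2 added in place of 0.05, because the values of HHEX and GATA6 are small.

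At 0 and 12 h no gene of the 7 was at least 2-fold higher in both clones with 0.05 added. The share of the mutant table called at these times was not computed, so this count is not a contrast to those at 24 and 48 h. MEIS3, already at a sizeable share of its own maximum before Wnt3a, was at 0.35 in WT Rep. 2 at 0 h, beside 0.36 in dZF1 and 0.20 in dZF2, and at 0.39, 0.31 and 0.26 at 12 h. It was thus below WT in both clones at 12 h and above it in both at 24 and 48 h. CXCR4 was at 0.01, 0.08 and 0.06 at 0 h, which without the addition is 8 and 6 times WT Rep. 2 but rests on a WT value of 1 rounding step, and between 0.05 and 0.07 at 12 h. The other 5 were at 0.06 or less at 0 h. At 12 h HHEX was at 0.15 in dZF1 but listed at 0 in dZF2, and FOXA2 was at 0.11 in dZF2 but listed at 0 in dZF1, so neither was shared by the clones.

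The WT series differed from each other in timing. To place both tables on 1 scale, the level at 24 h was expressed as a percentage of the level at 48 h in the same series. FOXA2 had reached 71.5% in the first WT series but 3% in WT Rep. 2, and was at 17.9% in dZF1 and 25.2% in dZF2. For HHEX the first WT series was at 15.3%, WT Rep. 2 at 0%, dZF1 at 4.5% and dZF2 at 2.13%. GATA6 was at 14.8%, 0%, 4.18% and 9.82% in the same order. For these 3 genes the clones were ahead of WT Rep. 2 but behind the first WT series. On this scale the direction of the 24 h difference, and not only its size, thus depends on which WT series is taken. A high 48 h level in a clone lowers its percentage, and for these genes that level was 2.02 to 5.56 times WT Rep. 2. As a fraction of the WT Rep. 2 maximum, HHEX was at 0.25 in dZF1 and GATA6 at 0.28 in dZF2 at 24 h. These lie above the shares of the first WT series, whereas HHEX in dZF2, GATA6 in dZF1 and FOXA2 in both clones stay below. The direction for HHEX and GATA6 thus also depends on the denominator.

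SOX17 was at 0.67% in the first WT series and at 0% in the other 3. LHX1 was at 6.08%, 0%, 0% and 1.49%. CXCR4 was at 3.26%, 5%, 4.21% and 5.56%, so its late onset was shared by all 4 series. MEIS3 was at 46.7%, 59%, 51.3% and 45.6%. Under 50% were 6 of 7 genes in each WT series and in dZF1, and all 7 in dZF2. The same was true of 24.1%, 33.5%, 27.0% and 26.1% of the genes of the mutant table with a value at 48 h. All 7 were highest at 48 h in WT Rep. 2, dZF1 and dZF2 as well, against 63.0%, 56.7% and 51.7% of that table.

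**Figure D4:**
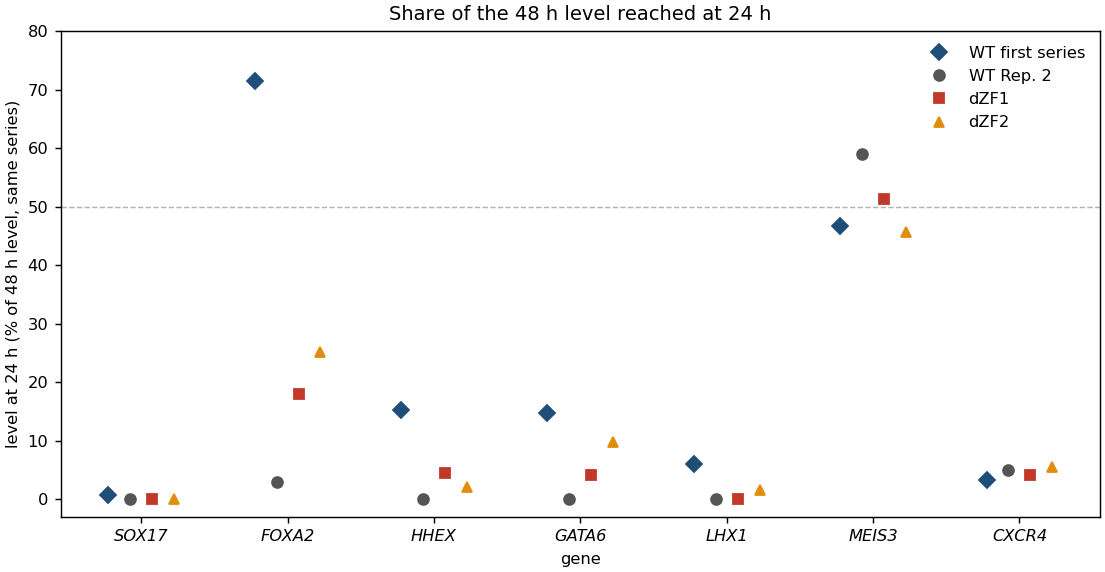
Level at 24 h as a percentage of the level at 48 h in the same series (vertical axis) for each of the 7 genes, in the first WT series (diamonds), WT Rep. 2 (circles), dZF1 (squares) and dZF2 (triangles), 1 library per time, with a dashed line at 50%. FOXA2 spans 3% to 71.5% across the series, while SOX17, LHX1 and CXCR4 are at 6.08% or less in all of them.

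A lower 24 h percentage in WT Rep. 2 was also seen in the median over the mutant table. That median was 68.2% in WT Rep. 2, against 87.9% in the first WT series, 80.8% in dZF1 and 84.5% in dZF2, over genes with a value in each. WT Rep. 2, the only control of the clones, was thus the lowest of the 4 series. Of the 21 endoderm genes 13 are in the mutant table, and in 9 of these the 24 h percentage was higher in the first WT series than in WT Rep. 2. EOMES was at 78.2% in the first WT series but at 5% in WT Rep. 2, while dZF1 was at 37.8% and dZF2 at 57.9%. MIXL1 was at 355%, 8%, 58.2% and 218%, and CER1, a secreted NODAL antagonist, at 73.6%, 2%, 11.8% and 28.6%. The other 4 of the 13, OTX2, KIT, FZD8 and SHISA2, went the opposite way, being lower in the first WT series than in WT Rep. 2. The part of this difference in timing in the clone differences of the 7 genes was not tested. At 48 h 12 of the 13 were higher in both clones and 4 at least 2-fold, EOMES, PRDM1, FZD8 and DKK1, with a median log2 difference of 0.71. LEFTY2, an inhibitor of NODAL, was the 1 gene lower in both, at 0.61 and 0.56. At 24 h 10 were higher and 8 at least 2-fold, with a median of 1.5.

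Of the other marker lists, 2 pluripotency and 2 mesoderm genes are in the mutant table. SOX2 at 48 h was at 0.63 in WT Rep. 2, against 0.35 in dZF1 and 0.41 in dZF2, and PRDM14 was at 0.45, 0.20 and 0.18, so both were lower in the clones. They were lower before Wnt3a too, with SOX2 at 1.00, 0.71 and 0.62 and PRDM14 at 0.82, 0.44 and 0.55 at 0 h. At 48 h T (brachyury, a mesoderm factor) was at 1.00, 1.96 and 3.23, and TBX3, a T-box factor also used in mesoderm, at 1.00, 3.87 and 4.90. SP5 itself was at 1.00, 2.54 and 2.61 at 48 h, which does not check the mutants because the deletion leaves the rest of the transcript. At 12 and 24 h SP5 was at 0.02 and 0.09 in WT Rep. 2, at 0.23 and 0.90 in dZF1 and at 0.62 and 0.75 in dZF2. In the first WT series it was at 49.8, 90.5 and 135.7 RPKM at 12, 24 and 48 h. WT Rep. 2 thus held little SP5 RNA at 24 h relative to its own 48 h level. The part of these other changes in the differences of the 7 genes was not tested.

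Genes with a time course like that of the 7 were sought among the other 490 by Pearson's r over the 12 libraries of the mutant table, on the log2(value + 0.05) scale. These libraries share their control maximum and follow a common time course, so high values are usual, with a median r of 0.654 to the median profile of the 7. Of the 497 genes, the 7 included, 84 were above 0.9. The 5 nearest were DKK1 (0.994), FGF17 (0.992), S1PR3 (0.986), CLDN11 (0.984) and COL5A2 (0.983). DKK1 is a secreted WNT antagonist, FGF17 an FGF ligand and S1PR3 a receptor for sphingosine 1-phosphate. SOX17 and LHX1 had the same nearest gene, PRSS1, with r of 0.999 and 0.994. Before 48 h SOX17 was listed at 0 and LHX1 was at 0.02 or less in every library, so both values rest mainly on the 48 h points. That of CXCR4 was CYP26A1, an enzyme that clears retinoic acid, with 0.987, and that of GATA6 was FGF17, with 0.983. HHEX was nearest to S1PR3 (0.979), FOXA2 to ODZ4 (0.981) and MEIS3 to MATN3 (0.961).

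SP5 ChIP-Seq peaks, regions where DNA bound by SP5 is enriched, lay upstream of LHX1 and GATA6. Peaks were deposited in 2 lists, labelled as without Wnt3a and with 24 h of Wnt3a, but both headers name the same ChIP library of Wnt3a-treated cells, with 18641194 tags. The lists differ in the control library, from buffer-treated cells (542 peaks) or Wnt3a-treated cells (540 peaks), so they cannot be compared as untreated and treated. The headers name the library for H9 cells, another embryonic stem cell line, where the labels give H1. Each peak has a tag count, a score that grows as its p-value falls, a fold over control and an FDR (false discovery rate, given as a percentage). The median peak had 25 tags and an FDR of 69.6% with the buffer-treated control, and 27 tags and 39.7% with the Wnt3a-treated control.

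LHX1 was the only gene of the 7 with a peak within 100 kb of its start site, in both lists, against 6.61% of 9519 protein-coding genes with the buffer-treated control and 7.55% with the Wnt3a-treated control. Its strongest peak, at chr17:35204180-35205181, has 40 tags and a summit 89321 bases upstream. This peak scored 105.85 with 9.36-fold enrichment and an FDR of 20.34% against buffer-treated control, and 127.98 with 11.06-fold and 2.7% against Wnt3a-treated control, ranking 59 and 37 in its list. A second, at chr17:35206696-35207702, has 30 tags, a summit 86945 bases upstream and FDRs of 66.38% and 16.5%. Both are intergenic, and LHX1 is the nearest protein-coding start to each. The last, at chr17:35278088-35278867, lies 15483 bases upstream in an intron of the divergent transcript LHX1-DT. It is in the list with Wnt3a-treated control alone, with 25 tags, a score of 51.55 (rank 468 of 540) and an FDR of 49.57%.

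GATA6 had 1 peak within 200 kb, at chr18:19570593-19571960, in an intron of the long noncoding RNA LINC01900. It has 47 tags and a summit 178549 bases upstream, with an FDR of 49.06% against buffer-treated and 5.36% against Wnt3a-treated control, and no protein-coding start lies between it and GATA6. Within 200 kb a peak was found for 2 of the 7 genes, against 11.9% and 13.4% of genes. The peak nearest to MEIS3 lay 483328 bases away inside ARHGAP35, in 1 list, with 10 protein-coding starts between. SOX17, FOXA2, HHEX and CXCR4 had no peak within 1 Mb in either list. Both lists stop at a p-value of 1e-05, so weaker SP5 enrichment near these genes would not appear in them.

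**Figure D5:**
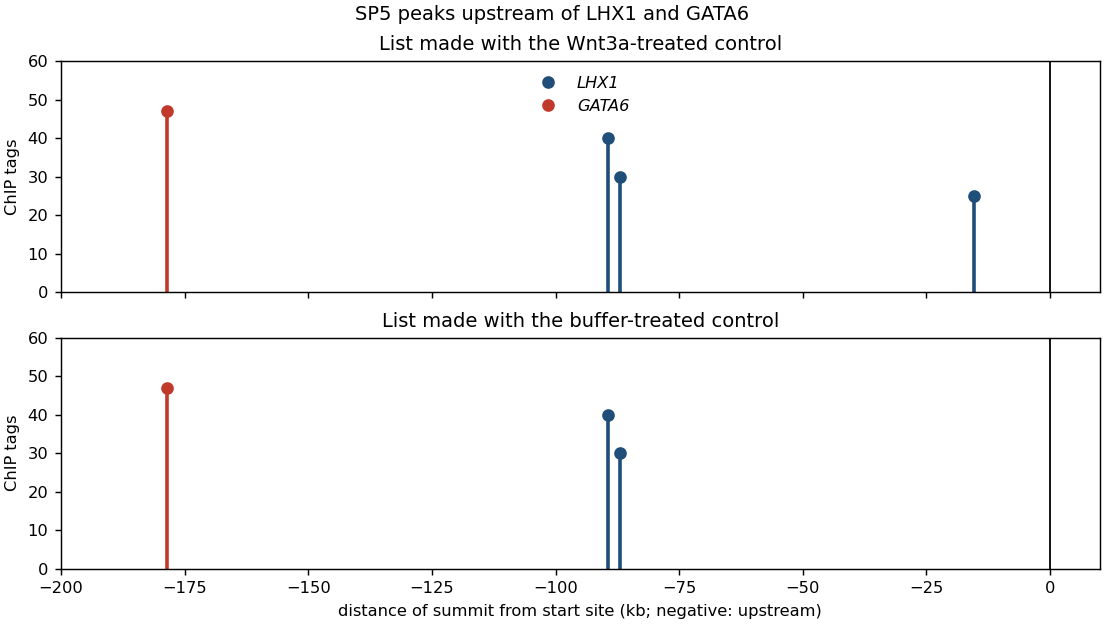
Tags in the SP5 ChIP library (vertical axis) at each peak within 200 kb of LHX1 (blue) or GATA6 (red), by distance of the summit from the start site in kb (horizontal axis, negative values upstream, line at 0), for the list with the Wnt3a-treated control (top) and with the buffer-treated control (bottom). The peaks at 178549, 89321 and 86945 bases are in both lists, and that at 15483 bases is in the top list alone.

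The sequence at the summits is shown because SP family proteins bind GC boxes. Capitals mark GGGCGG, the core of a GC box, and the related GGGAGG, on either strand, so that CCGCCC and CCTCCC are their reverse complements, and overlapping matches were counted. Each is the hg19 plus strand, 100 bases to either side of the summit.
LHX1, chr17:35204663-35204863, plus strand: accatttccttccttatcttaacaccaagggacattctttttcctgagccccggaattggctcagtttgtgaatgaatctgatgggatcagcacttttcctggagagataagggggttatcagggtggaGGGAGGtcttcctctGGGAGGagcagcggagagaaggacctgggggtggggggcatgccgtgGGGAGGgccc
LHX1, chr17:35207039-35207239, plus strand: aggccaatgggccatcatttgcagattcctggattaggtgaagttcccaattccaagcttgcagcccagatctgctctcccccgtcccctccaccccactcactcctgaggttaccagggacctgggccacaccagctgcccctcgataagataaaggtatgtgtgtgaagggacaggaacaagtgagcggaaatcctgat
LHX1, chr17:35278501-35278701, plus strand: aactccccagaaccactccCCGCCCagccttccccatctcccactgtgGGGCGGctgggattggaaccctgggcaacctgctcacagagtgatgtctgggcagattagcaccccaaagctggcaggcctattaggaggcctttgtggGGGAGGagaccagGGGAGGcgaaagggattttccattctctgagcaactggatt
GATA6, chr18:19570901-19571101, plus strand: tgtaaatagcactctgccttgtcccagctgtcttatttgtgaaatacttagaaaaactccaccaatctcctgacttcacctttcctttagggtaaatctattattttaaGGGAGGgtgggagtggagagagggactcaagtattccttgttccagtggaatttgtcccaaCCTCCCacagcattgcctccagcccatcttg

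The strongest LHX1 peak holds 3 matches to GGGAGG and 0 to GGGCGG, the second holds neither, and the weakest holds 2 of each. The GATA6 peak holds 2 matches to GGGAGG. Among the windows of the same length at 539 summits of each list, GGGCGG was found in 35.3% and 42.1% and GGGAGG in 49.5% and 50.8%, with one or the other in 60.7% and 63.3%. Such matches are thus common at SP5 summits, and a match describes letters, not a binding site.

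The 250 bases before the start sites of HHEX, CXCR4 and FOXA2 are shown as examples from genes without a nearby peak. Each is on the strand of its gene.
HHEX, chr10:94449462-94449711, plus strand: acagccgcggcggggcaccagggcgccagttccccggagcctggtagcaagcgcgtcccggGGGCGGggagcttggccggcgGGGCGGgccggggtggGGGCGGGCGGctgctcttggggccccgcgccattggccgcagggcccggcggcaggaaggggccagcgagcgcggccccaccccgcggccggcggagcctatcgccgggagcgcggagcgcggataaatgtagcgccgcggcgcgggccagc
CXCR4, chr2:136876748-136876997, minus strand: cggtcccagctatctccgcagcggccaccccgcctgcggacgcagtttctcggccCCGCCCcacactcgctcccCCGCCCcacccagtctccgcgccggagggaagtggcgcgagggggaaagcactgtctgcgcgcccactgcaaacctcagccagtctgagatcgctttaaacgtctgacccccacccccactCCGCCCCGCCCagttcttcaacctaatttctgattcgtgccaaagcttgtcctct
FOXA2, chr20:22566094-22566343, minus strand: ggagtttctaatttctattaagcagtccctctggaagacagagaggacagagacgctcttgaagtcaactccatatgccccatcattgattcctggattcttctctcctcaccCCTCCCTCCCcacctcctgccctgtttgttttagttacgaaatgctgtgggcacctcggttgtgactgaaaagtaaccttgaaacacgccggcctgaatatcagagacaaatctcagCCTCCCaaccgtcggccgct

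HHEX and CXCR4 hold 4 matches to GGGCGG each, and FOXA2 holds none but 3 to GGGAGG, in these 250 bases. LHX1 and GATA6, the genes with peaks, hold 0 to GGGCGG there, and 1 and 3 to GGGAGG. SOX17 holds 2 and 1, and MEIS3 0 and 2. These stretches are longer than the summit windows and differ in GC content, 81.2% for HHEX against 44.8% to 59.2% at the summits shown. Their counts are therefore not set against those of the summits. Of the 7 genes 3 hold GGGCGG and 5 hold GGGAGG, where the shares among 20136 protein-coding genes were 48.8% and 50%.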

How the data were processed

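The authors used TopHat for alignment to hg19 and Cuffdiff for expression, and deposited RPKM to 1 decimal for the first WT series. In the mutant table the authors deposited, to 2 decimals, the fraction of the maximum for WT Rep. 2 and, for each clone, the ratio to that maximum. Versions of TopHat and Cuffdiff and the gene annotation are not given in the sources used here, and no read counts accompany these values. The submitters' notes name Bowtie 0.12.7, SAMtools 0.1.12a and MACS 1.4.2. Per the file headers, peaks were called by MACS at a p-value cutoff of 1e-05, and for each peak the authors deposited a tag count, a score, a fold over control and an FDR in percent.

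Samples were grouped by their labels. The tables were scaled separately, so levels were compared only within a table. A pseudocount of 1 was added to RPKM and of 0.05 to the mutant table, and a call needed a 2-fold change. Peak summits were set against start sites of GENCODE genes on GRCh37 (hg19), and sequences were read from that genome. The 7 genes, the marker lists and the settings were chosen with earlier results of these data known. Named genes are the 7, the list genes in the mutant table, the listed paralogs, CXCL12 and ACKR3, and the nearest genes by correlation. Further deposited tables that give the first WT series as a fraction of its maximum were not used here. Steps were tested on simulated data. Python 3.11.15, numpy 2.4.6, pandas 2.3.3 and matplotlib 3.10.9 were used.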

Additional observations from a re-analysis of the deposited data

How the results depend on the processing

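Each of 13 results was recomputed under up to 7 other settings, 58 recomputations in all. All but the median log2 difference are counts, which have no direction to change, and that median stayed positive under each setting. The cause of the moves below was not tested unless the setting itself gives it. In the first WT series the genes called higher at 12 h, 1 of 7, became 4 with a pseudocount of 0.1, 0 with a pseudocount of 5, 3 at 1.5-fold and 0 at 4-fold, and the 5 genes at 24 h became 3 with a pseudocount of 5. The 7 genes called at 48 h stayed 7 under each. For the clones at 48 h, the count at least 2-fold higher ranged from 3 without dZF1 to 5 without dZF2 and was 4 with a pseudocount of 0.01 and 6 at 1.5-fold. At 24 h it was 1 with a pseudocount of 0.2. The median log2 difference at 48 h ranged from 0.98 to 1.22 with 1 clone left out, and was 1.02 with each series centred on the median of all genes. The count of genes with a peak, 1 within 100 kb, became 0 within 20 kb, 0 within 50 kb, 2 within 200 kb, 2 within 500 kb and 0 at an FDR of at most 20% for the list with buffer-treated control. For the list with Wnt3a-treated control it became 2 within 200 kb and 3 within 500 kb. No paired analysis was possible because no result comes from a test. With 1 library per point and unknown depth, values listed at 0 have no interval.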

Other observations

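At 24 h the clones differed from each other in several genes active early in mesendoderm. T was at 0.42 in dZF1 and 6.16 in dZF2, where WT Rep. 2 was at 0.34, and MIXL1 was at 0.71 and 3.27, where WT Rep. 2 was at 0.08. NODAL was at 1.46 and 3.06, and GSC, a homeobox factor of the organizer, at 0.74 and 1.80. LEFTY1, at 1.01 and 1.15, and LEFTY2, at 0.94 and 1.00, showed little gap. Of the 7 genes described above, GATA6 was higher in dZF2, at 0.28 against 0.12, FOXA2 was at 0.43 and 0.51, and HHEX was higher in dZF1, at 0.25 against 0.11. These genes were picked after their values were seen, and with 1 library per clone and time the differences were not tested.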
